A study of Mus musculus with 12 samples.

Results

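The genes described here are the mouse genes named Zfp followed by a digit, most of which encode proteins built from C2H2 zinc fingers. They were chosen by symbol, from protein-coding genes of the GRCm38 annotation, leaving out the Zfp36 family, whose proteins bind RNA through another kind of finger. Of 383 such genes, 120 had a mean of 100 or more total reads over the 12 libraries and were kept, and 263 fell below that depth, 50 of them with 0 reads in every library. The 120 genes stand among 9204 genes of that depth, and the 9084 others serve as the comparison. Just inside the depth limit were Zfp950 with a mean of 102.5 total reads and Zfp672 with 109.0, and just outside it were Zfp27 with 95.3 and Zfp160 with 94.4.

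A C2H2 zinc finger is a small loop held by a zinc ion that reads a few bases of DNA, and proteins with a row of fingers bind longer sites. Many of these proteins also carry a KRAB box, which recruits the corepressor Trim28 (KAP1) and through it the histone methyltransferase Setdb1, and this pathway is known for silencing retroelements. Transcripts of transcription factors are often short-lived, and in a labelling experiment a short-lived transcript has a large labelled part.

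The cells were SIM-A9, a microglial line from C57BL/6 mice, in which newly made RNA was marked by SLAM-seq: 4-thiouridine, a uridine analogue taken up into new RNA, was given at 100 µM for 90 min, then modified by iodoacetamide so that reads from new (nascent) RNA can be told from the rest. Reagents were added in medium without serum. All cultures first had 10 µM polymyxin B, an antibiotic that binds endotoxin, for 1 h. They then had 10 µM C13 (the MOK inhibitor of the series title) or DMSO for 1 h, and TDP-43 aggregates or sham aggregates at 5 µg/mL for 2.5 h before the label, 4 h with it. Groups are written as inhibitor arm and aggregate arm: DMSO/sham, DMSO/TDP-43, C13/sham and C13/TDP-43. Each had 3 libraries called biological replicates with no shared day stated, so p-values measure only the spread between these libraries. SIM-A9 is a single cultured line, and the protocol gives every culture the label. The design asks what C13 and the aggregates change early in new and total RNA.

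Depth per library ran from 17436397 to 41779882 total reads and from 552042 to 2722812 nascent ones. Of 12 microglia markers 11 had a mean of 1 CPM (reads scaled to the library total) or more, with a summed level of 922 to 1389 CPM, and Tmem119 was below 1 CPM. No astrocyte, neuron, fibroblast or endothelial marker reached 1 CPM. Among 4 oligodendrocyte markers only Mbp did, with a summed level of 4.66 to 45.6 CPM for the list and with Mag and Mog at 0, and the part of such RNA in any result was not tested. In DMSO/TDP-43 replicate 3 and C13/sham replicate 3 the median share of nascent reads over genes was far below that of the other libraries. The median share of the set and the numbers of genes called above or below a reference are therefore given with and without this pair. Other results on that share use all 12 libraries unless stated. DMSO/sham replicate 2 was high instead, with 7.11% of its reads nascent, where the other libraries had 1.88% to 3.40%, and it was kept.

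The share of a gene's reads that were nascent, its nascent share, was higher for the zinc finger genes than for other genes above the depth limit. The median over genes of the mean share over 12 libraries was 3.91% for the zinc finger genes (quartiles 2.32% and 6.32%) and 2.67% for the other genes (quartiles 1.80% and 3.99%). Of the 120 genes 82 (68.3%) lay above the other genes' median. A share of 10% or more was reached by 15 zinc finger genes (12.5%) against 238 other genes (2.62%). With the reads of the 12 libraries summed first, the medians were 3.80% and 2.68%. Without the pair of libraries that stood apart, they were 4.34% and 2.96%. Members of a gene family are not replicates, so these medians carry no test.

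**Figure D1:**
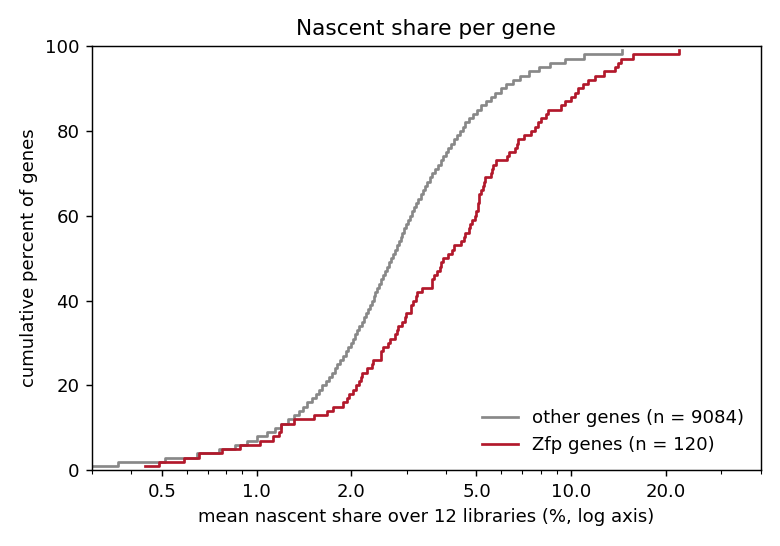
Cumulative percent of genes (vertical axis) against the mean nascent share over 12 libraries in percent (horizontal log axis), from the 1st to the 99th percentile, for the 120 zinc finger genes (red) and the 9084 other genes of that depth (grey). The red line lies to the right of the grey line over most of its course, with medians of 3.91% and 2.67%, and the lines meet among the lowest shares.

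The zinc finger genes were less deeply read than the others, with a median of 323 against 955 total reads per library, so the comparison was repeated within ranges of depth. Their median share exceeded that of other genes in each range: 4.14% against 2.10% at 100 to 200 reads (36 genes), 3.62% against 2.48% at 200 to 500 (37 genes) and 4.58% against 2.70% at 500 to 1000 (28 genes). Above 1000 reads the sets were small, with 3.86% against 2.86% for 11 genes and, from 2500 reads on, 3.46% against 2.76% for 8 genes. A 4-thiouridine label can be seen only at a T. The T content of the last 250 bases of their annotated transcripts was close to that of other genes, with medians of 28.3% and 28.0%. The part of T content in the share was not tested.

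**Figure D2:**
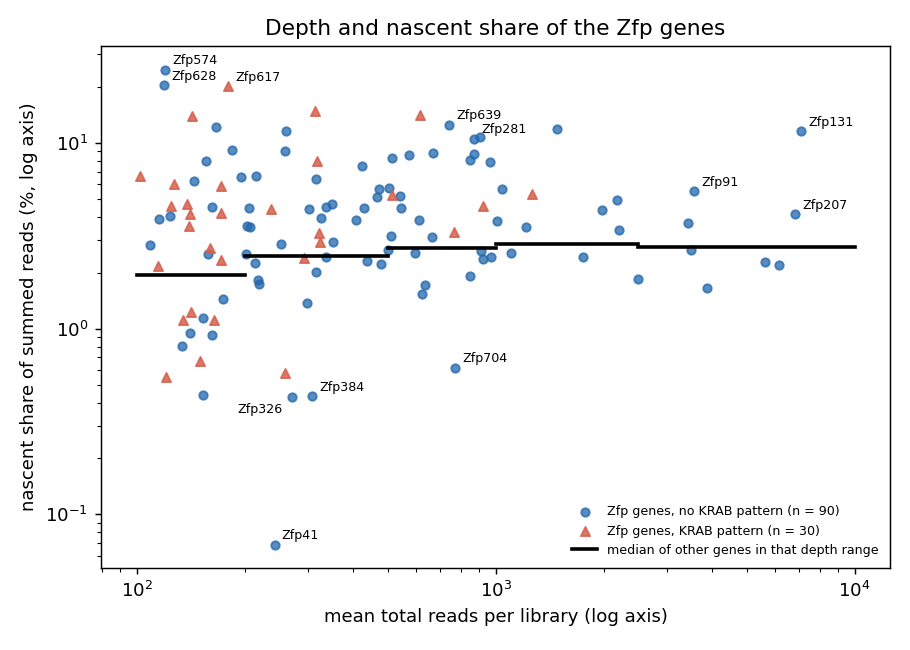
Nascent share of the reads summed over 12 libraries (percent, vertical log axis) against mean total reads per library (horizontal log axis) for the 120 zinc finger genes, as triangles with a KRAB pattern and as circles without. Black bars are the medians of other genes in each range of depth. Most points lie above the bars, Zfp131 is far above at the deepest end, and Zfp41 is the lowest point.

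The same comparison could be made inside each library. With all reads of a set summed, the zinc finger genes had the larger nascent share in 12 of 12 libraries, by a ratio of 1.08 to 1.85 (median 1.62). The ratio was 1.48 ± 0.297 in DMSO/sham, 1.66 ± 0.0789 in DMSO/TDP-43, 1.28 ± 0.242 in C13/sham and 1.75 ± 0.118 in C13/TDP-43 (mean ± SD, n = 3 each). The libraries of these groups overlapped except that both TDP-43 groups lay above all C13/sham libraries. The summed share follows the deepest genes, above all Zfp131, which held 9829 of the set's nascent reads over the 12 libraries. Both the 12 of 12 and the place of the TDP-43 groups above C13/sham depend on Zfp131, whose counts are given below. In C13/sham replicate 3 the whole set had 2942 nascent reads, and in DMSO/TDP-43 replicate 3 it had 3533. The median over genes was less uniform: it was higher for zinc finger genes in 9 of 12 libraries. The exceptions were DMSO/TDP-43 replicate 3, with 0.258% against 0.377%, C13/sham replicate 2, with 1.31% against 1.45%, and C13/sham replicate 3, with 0.211% against 0.304%. In these libraries 47 to 56 of the 120 genes had 0 nascent reads, against 13 to 38 in the others.

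**Figure D3:**
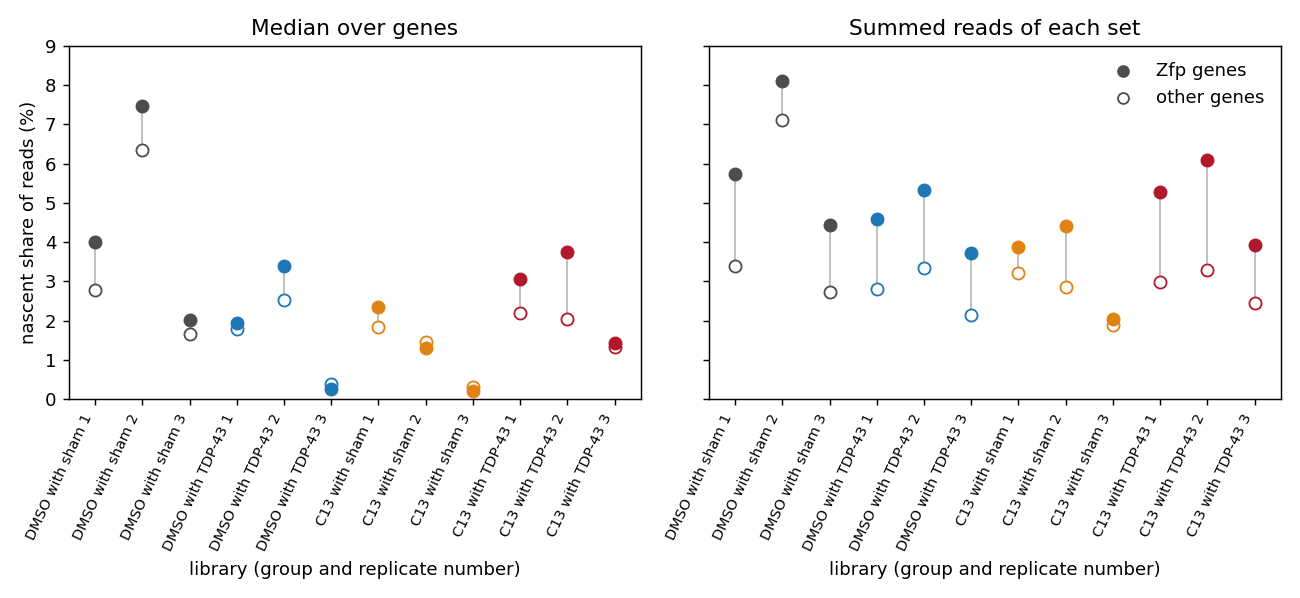
Nascent share of reads in percent (vertical axis) in each of the 12 libraries (horizontal axis), as the median over genes (left) and for the summed reads of a set (right), with filled points for zinc finger genes and open points for other genes. Filled points lie above open ones in 9 libraries on the left and in all 12 on the right, and colours mark the 4 groups.

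Single genes were then tested with edgeR's quasi-likelihood test, which set nascent against remaining reads within libraries and adjusted p over all 9204 genes by the Benjamini-Hochberg method. The estimate is a log2 ratio to the scaled library-wide reference, and its median was -0.50 for the zinc finger genes and -0.85 for all genes. By this test 17 of the 120 genes (14.2%) were above the reference, where 7.81% of all genes were, and 21 (17.5%) were below it, where 29.2% of all genes were. Without the pair of libraries that stood apart 15 (12.5%) were above and 9 (7.5%) below, where 7.78% and 19.99% of all genes were. Leaving out DMSO/sham replicate 1 gave 11 above, and leaving out C13/sham replicate 3 or C13/TDP-43 replicate 3 gave 12 or 13 below. With library sizes not scaled further 12 (10.0%) were above and 32 (26.7%) below, where 5.91% and 37.4% of all genes were, so the numbers called moved with the scaling in both sets. Of the 17 genes above, 10 stayed above under every alternative run, and of the 21 below, 7 did.

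The 10 were Zfp574, Zfp617, Zfp639, Zfp131, Zfp503, Zfp622, Zfp281, Zfp263, Zfp839 and Zfp91. Zfp131, a protein that pairs a BTB domain with zinc fingers, was the most deeply read of all 120 and lies on chromosome 13 (GRCm38, 119765187 to 119790889, minus strand). Its nascent reads were 783 of 8497 total, 951 of 9614 and 947 of 8645 in DMSO/sham, and 597 of 4593, 1250 of 9498 and 1497 of 6937 in DMSO/TDP-43. They were 111 of 4772, 541 of 6057 and 448 of 7863 in C13/sham, and 849 of 6661, 1203 of 7966 and 652 of 4139 in C13/TDP-43. All 3 C13/sham libraries were lower than every other library, and those with TDP-43 were the highest. The group means were 10.0% ± 0.877, 15.9% ± 4.91, 5.65% ± 3.30 and 14.5% ± 1.58 (SD, n = 3 each) in the same order, and 95% Wilson intervals of single libraries were 0.858 to 2.22 percentage points wide. These shares are of raw counts, and the label of whole libraries also differed. Scaled to the library in the share fit, C13 against DMSO among sham cultures gave log2 -0.06 (SE 0.73). Aggregates against sham gave 1.49 (SE 0.71) under DMSO and 1.24 (SE 0.72) under C13, and none of these passed after adjustment. Over all libraries the share was 11.5% ± 4.97 (SD, n = 12), higher than that of 98.2% of the other genes. The log2 estimate was 2.14 (SE 0.26, edgeR adjusted p = 4.56e-06), and it was 1.96 to 2.35 with any 1 library left out.

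Promoters of 3 of these well-read genes are printed to show what kind of start site they have, from the RefSeq table of GRCm38.p6, which held 96 of the 120 genes. Each runs from 250 bases before the start to 50 after it, in the direction of the gene. Capitals mark matches on either strand to GGGCGG (the GC box bound by Sp-family factors, which reads CCGCCC on the other strand) and GCGCATGC (the core of the NRF1 site). The regions are chr13:119790683-119790982 on the minus strand for Zfp131, chr1:136624651-136624950 on the plus strand for Zfp281 and chr3:32510342-32510641 on the plus strand for Zfp639.
Zfp131: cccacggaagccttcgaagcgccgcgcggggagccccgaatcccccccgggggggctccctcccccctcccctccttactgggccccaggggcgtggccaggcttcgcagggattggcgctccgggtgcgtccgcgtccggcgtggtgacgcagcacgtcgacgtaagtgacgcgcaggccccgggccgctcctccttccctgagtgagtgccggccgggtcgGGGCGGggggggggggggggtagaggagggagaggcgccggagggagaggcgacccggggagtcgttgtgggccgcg
Zfp281: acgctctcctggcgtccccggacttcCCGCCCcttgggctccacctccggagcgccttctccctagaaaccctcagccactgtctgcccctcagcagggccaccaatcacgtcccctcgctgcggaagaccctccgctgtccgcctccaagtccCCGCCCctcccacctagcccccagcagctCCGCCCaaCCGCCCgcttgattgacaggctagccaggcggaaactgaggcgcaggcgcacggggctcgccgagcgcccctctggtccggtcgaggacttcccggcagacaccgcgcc
Zfp639: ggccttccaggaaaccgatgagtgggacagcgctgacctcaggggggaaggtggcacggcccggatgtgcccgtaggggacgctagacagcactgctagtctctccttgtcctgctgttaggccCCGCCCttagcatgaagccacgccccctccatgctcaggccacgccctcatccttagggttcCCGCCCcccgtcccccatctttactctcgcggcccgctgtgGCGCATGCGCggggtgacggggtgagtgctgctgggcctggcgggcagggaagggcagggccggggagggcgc
GC boxes stood in all 3. Over the set, 56 of 96 promoters (58.3%) held one, against 67.8% of promoters of other protein-coding genes of that depth and 35.8% of all other promoters in the table. The NRF1 core stood in 6.25% against 6.41%, the ETS core CCGGAAG in 19.8% against 21.6%, the YY1 core AAGATGGC in 6.25% against 5.59%, the ZNF143 core ACTACAA in 5.21% against 4.86%, and TATAAA in 8.33% against 6.14%. Matches of the GC box and the NRF1 core may overlap with other motifs, and a match is a description of letters only.

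Among the other strongly labelled genes, Zfp639 had 92, 172 and 74 nascent reads in DMSO/sham, 80, 137 and 132 in DMSO/TDP-43, 50, 126 and 2 in C13/sham and 102, 110 and 42 in C13/TDP-43. A single library, C13/sham replicate 3, held 2 of 1568 reads, a share of 0.128%, and the other 11 lay between 9.17% and 17.3%. Its mean was 13.7% ± 4.98 (SD, n = 12) and its log2 estimate 2.26 (SE 0.45, edgeR adjusted p = 0.0013). Zfp281, a regulator of pluripotency genes, had 12.1% ± 7.13 (SD, n = 12), again lowest in C13/sham replicate 3 with 0.432% and highest in C13/TDP-43 replicate 1 with 25.2%. Zfp263 had 10.8% ± 6.18 (SD, n = 12) and was likewise lowest in that library, with 2 of 1516 reads. All counts of Zfp281 and Zfp263 are even.

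The highest shares belonged to thinly read genes. Zfp574 had a mean of 120 total reads and a share of 27.7% ± 15.98 (SD, n = 12), with 0 of 62 reads nascent in DMSO/TDP-43 replicate 3, which allows up to 4.84%, and 30 of 52 in DMSO/sham replicate 1. Zfp617, which carries a KRAB pattern, had 23.4% ± 13.8 (SD, n = 12) on a mean of 180 reads, from 2.61% in C13/sham replicate 3 to 45.6% in DMSO/sham replicate 3. Both passed the test (log2 3.51, SE 0.62, and log2 3.21, SE 0.51; edgeR adjusted p = 0.000404 and 0.000137). Zfp628 with 16.3%, Zfp386 with 14.8% and Zfp503 with 12.8% also passed it, the first 2 not without some single libraries (8 and 4 of 12 omissions kept the call). Zfp1 with 14.1% and Zfp553 with 14.1% did not pass (edgeR adjusted p = 0.103 and 0.338), and with summed reads Zfp553 came to 6.54%. Zfp142 shows the same limit: its mean share was 10.3% and its summed share 1.75%.

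At the other end, Zfp41 had 0 nascent reads in 10 of 12 libraries and 1 in each of the others, DMSO/TDP-43 replicate 2 and C13/TDP-43 replicate 2, on 22 to 553 total reads. This gave a summed share of 0.0688% and the lowest mean share of the set, 0.0453%. Zfp704 was better read, with 313 to 1251 total reads, and had 3, 1 and 0 nascent reads in DMSO/sham, 2, 28 and 15 in DMSO/TDP-43, 1, 2 and 1 in C13/sham and 1, 2 and 1 in C13/TDP-43. DMSO/TDP-43 replicates 2 and 3 thus held most of its label, and its mean share was 0.554% ± 0.894 (SD, n = 12; log2 -3.20, SE 0.62, edgeR adjusted p = 0.000881). Zfp384, a factor that binds AT-rich DNA, had all of its 16 nascent reads in C13/TDP-43 replicate 2. Zfp326, part of a complex that links the polymerase to splicing, had 4 nascent reads at most in any library and a mean share of 0.665%. Zfp87 with 0.615%, Zfp446 with 0.783%, Zfp560 with 0.867% and Zfp984 with 0.440% complete the lowest 8, and all 8 were below the reference by the test. Those of Zfp41, Zfp704, Zfp384, Zfp326, Zfp87 and Zfp446 held under every alternative run, as did that of Zfp277.

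Not all of the 120 are DNA-binding regulators, and the name is no guide to function. Of 35 zinc finger genes listed for a known role 30 were deep enough, with a median share of 4.10%, and 7 (23.3%) were above and 5 (16.7%) below the reference, beside 7.81% and 29.2% of all genes. Proteins of RNA and translation fell on both sides. Zfp622, which helps mature the large ribosomal subunit, had 11.2% ± 5.33 (log2 2.03, SE 0.43, edgeR adjusted p = 0.00205). Zfp598, a ubiquitin ligase that detects collided ribosomes, had 1.50% ± 1.80 and Zfp106, an RNA-binding protein needed by motor neurons, 1.93% ± 1.71 (SD, n = 12 for all 3). Both were below the reference, with edgeR adjusted p = 0.0232 and 0.0443, and the call for Zfp106 held in only 2 of 12 omissions of a library. Zfp91, a ubiquitin ligase, had 5.27% ± 1.88 and passed the test (log2 0.99, SE 0.28, edgeR adjusted p = 0.0109). Zfp207, which brings Bub3 to the spindle, was read nearly as deeply as Zfp131, with a mean of 6842 reads, and had 4.23% ± 2.22, which did not pass (edgeR adjusted p = 0.175). Zfp143, a factor of many promoters, had 5.25% ± 7.53, Zfp451, a SUMO ligase, 3.61% ± 3.82, and Zfp148, which binds GC-rich DNA, 2.75% ± 2.07, and none of them passed (edgeR adjusted p = 0.452, 0.586 and 0.496). Zfp809, which silences retroviral DNA in stem cells, had 3.29% ± 6.03 and Zfp568, a repressor of placental Igf2, 4.96% ± 6.32, on means of 141 and 140 reads, and neither passed.

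The structure of the encoded proteins was read from the coding frames by matching letter patterns, which can miss a KRAB box or a finger. A KRAB pattern was found in 211 of the 383 genes but in only 30 of the 120 that were deep enough: 14.2% of genes with the pattern reached the depth, and 52.3% of those without it. Among the 120, the median share was 3.74% with the pattern and 4.03% without, and on summed reads the order was the other way, 4.18% with it and 3.73% without. With 0 to 4 finger patterns the median was 2.82% over 32 genes, of which 5 were above and 12 (37.5%) below the reference. With 5 to 9 fingers it was 4.09% over 41 genes, of which 7 were above and 2 (4.88%) below. With 10 or more it was 4.76% over 47 genes, of which 5 were above and 7 (14.9%) below. Of all genes, 7.81% were above and 29.2% below. The 3 finger classes differed in depth, with medians of 810, 429 and 171 total reads in that order, and the part of depth in these values was not tested. Across the 120 genes, which share the 12 libraries, Spearman's rho of share with finger number was 0.20, with T content -0.11 and with depth 0.03, given as descriptions. No classical finger was found in Zfp839, Zfp330, Zfp503 and Zfp703, of which Zfp703 and Zfp503 are related corepressors with an atypical finger. Chromosome 7, which holds several clusters of such genes, carried 22 of the 120, with a median share of 4.80%.

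Related gene families of that depth are given beside them as medians, with no test. The median share was 3.26% for 28 Zbtb genes, 6.29% for 7 Zscan and Zkscan genes and 6.86% for 7 Klf genes, of which 3 were above the reference and 0 below. It was 1.90% for 75 cytosolic ribosomal protein genes, of which 42 were below. The proteins that KRAB factors recruit had a median of 2.95% over 26 of 29 listed genes that were deep enough, with 3 (11.5%) above the reference and 5 (19.2%) below, beside the same 7.81% and 29.2%. The scaffold Trim28 had 3.71% ± 3.38 and Setdb1 4.98% ± 4.06 (SD, n = 12), and neither passed the test. Those above were Daxx, a histone chaperone, with 13.6% ± 4.96, Hells, a chromatin remodeller, with 8.27% ± 3.24, and Chd4, the motor of the NuRD complex, with 5.82% ± 2.74. Those below were Dnmt1, Sumo2, Morc2a, Morc3 and Atrx.

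Groups were compared next, for nascent reads, total reads and nascent against remaining reads. Among nascent counts, 79 of the 120 genes passed the filter on low counts and 41 did not, and among total counts all 120 did. By edgeR's quasi-likelihood test with adjustment over all genes tested, 0 zinc finger genes were called in any of 7 comparisons of any of the 3 measures. The 7 were the 4 between pairs of groups, both averaged treatment effects and their interaction. The background was as low: 0% of all genes were called in these comparisons, except 0.0141% of nascent reads and 0.0109% of shares for aggregates averaged over C13 and DMSO, which is 1 gene each. In bulk RNA fewer cells and less RNA per cell cannot be told apart.

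With aggregates against sham under DMSO, 4 of 79 genes had an unadjusted p under 0.05 in nascent RNA (5.06%, all genes 3.19%) and 7 of 120 in total RNA (5.83%, all genes 4.36%). The 3 libraries of one group did not overlap those of the other for 8 of 79 genes in nascent RNA (10.1%, all genes 10.3%) and for 17 of 120 in total RNA (14.2%, all genes 11.9%). With C13 present, the aggregates gave 9 nascent genes (11.4%, all genes 8.45%) and 7 total genes (5.83%, all genes 8.84%) under that p, and 13 (16.5%, all genes 13.1%) and 13 (10.8%, all genes 12.8%) without overlap. Shares of this kind were above the background in some comparisons and below it in others.

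Among sham cultures, C13 against DMSO gave 9 nascent genes (11.4%, all genes 6.89%) and 2 total genes (1.67%, all genes 6.1%) with an unadjusted p under 0.05. The groups did not overlap for 12 nascent genes (15.2%, all genes 14.3%) and 16 total genes (13.3%, all genes 10.1%). Among TDP-43 cultures, C13 against DMSO gave 3 nascent genes (3.80%, all genes 4.59%) and 8 total genes (6.67%, all genes 5.98%), and 11 (13.9%, all genes 10.4%) and 16 (13.3%, all genes 13.4%) without overlap. The median log2 fold change of total reads over the 120 genes was 0.11 for C13 among sham cultures and 0.13 among TDP-43 cultures, where it was -0.01 and -0.00 for all genes. Of the 120, 75 (62.5%) and 69 (57.5%) were higher, where 49.2% and 49.6% of all genes were. These comparisons share no library with each other, but genes of a set are not replicates, and the shift was not tested. For nascent reads, scaled among themselves, the medians over 79 genes were -0.03 and 0.13, with -0.04 and 0.02 for all genes. For aggregates they were 0.14 under DMSO and 0.46 under C13, with -0.04 and 0.04 for all genes. With total-read library sizes in their place, the medians for C13 were -0.84 among sham and 0.29 among TDP-43 cultures (all genes -1.005 and 0.12), and those for aggregates were -0.51 under DMSO, a change of sign, and 0.75 under C13 (all genes -0.78 and 0.37). Relative to all genes the zinc finger median was higher by 0.01 to 0.42 over the 4 comparisons with the first scaling and by 0.16 to 0.37 with the second.

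**Figure D4:**
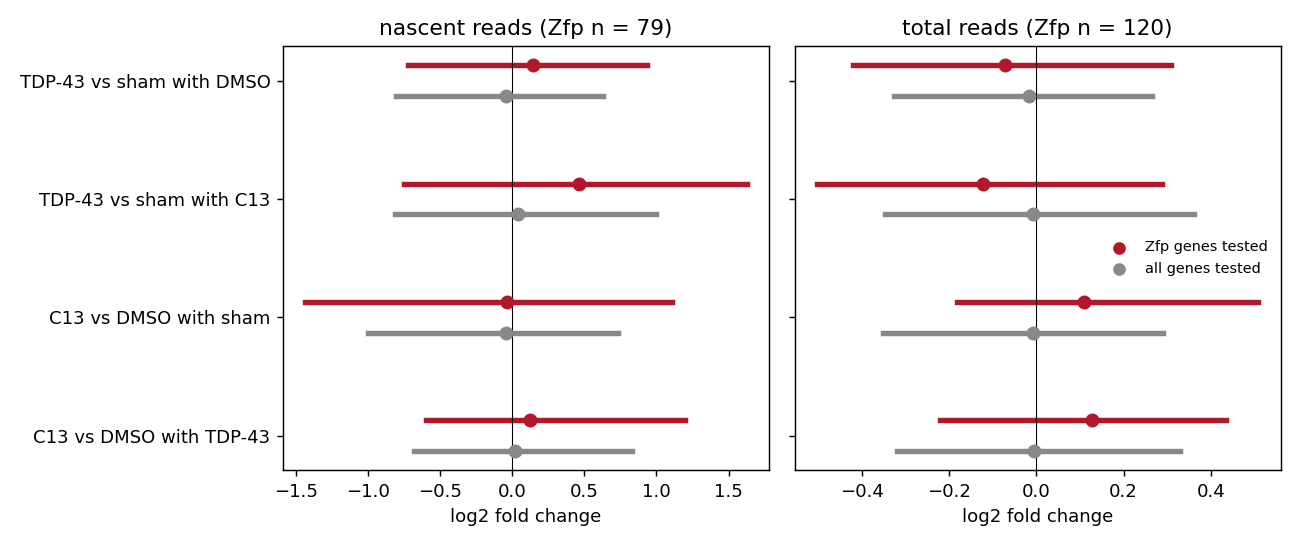
Median (point) and quartiles (bar) of the log2 fold change (horizontal axis) in the 4 comparisons between pairs of groups, for nascent reads (left) and total reads (right), with zinc finger genes in red and all genes tested in grey. Nascent reads are scaled among themselves. Bars of both sets span 0 in every comparison, and those of the zinc finger genes are the wider ones.

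For the share itself, the medians over the 120 genes in the comparisons between pairs of groups had the sign of those of all genes and a larger size, -0.36 against -0.19 for aggregates under DMSO, 0.74 against 0.22 for aggregates under C13, -0.77 against -0.37 for C13 among sham cultures and 0.37 against 0.06 for C13 among TDP-43 cultures (log2). For C13 averaged over both aggregate arms the size was smaller, -0.07 against -0.14. Unadjusted p was under 0.05 for 3, 6, 4 and 1 of the 120 genes in that order (all genes 2.55%, 4.95%, 4.74% and 3.31%). For aggregates averaged over both inhibitor arms, C13 averaged over both aggregate arms, and the interaction, it was under 0.05 for 5, 4 and 5 genes (all genes 3.78%, 3.79% and 4.92%). The same 3 gave 6, 7 and 4 of 79 genes for nascent reads (all genes 5.59%, 5.96% and 7.59%) and 4, 2 and 10 of 120 for total reads (all genes 4.73%, 4.08% and 7.96%). Zinc finger genes with 0 nascent reads made up 16.4% ± 6.94 of the set in DMSO/sham and 30.6% ± 15.1 in DMSO/TDP-43. They made up 36.9% ± 4.59 in C13/sham and 20.3% ± 4.59 in C13/TDP-43 (SD, n = 3 each). Among other genes the libraries ran from 7.23% to 16.2%, 10.7% to 30.6%, 23.998% to 25.5% and 15.8% to 18.3% in that order. In both sets all C13/sham libraries lay above those of DMSO/sham and C13/TDP-43, while DMSO/TDP-43 overlapped every other group. Nascent depth per library was 1050971 to 2722812 reads in DMSO/sham and 552042 to 1361324 in DMSO/TDP-43. It was 558608 to 786491 in C13/sham and 767433 to 1168511 in C13/TDP-43, and its part in these percentages was not tested. The part of genes with 0 nascent reads in the medians was not tested.

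Zfp638, a nuclear RNA- and DNA-binding protein that helps silence unintegrated retroviral DNA, had the smallest adjusted p of these genes for nascent reads under C13 against DMSO among sham cultures. Its nascent reads numbered 56, 384 and 283 in DMSO/sham, 139, 70 and 68 in DMSO/TDP-43, 0, 4 and 0 in C13/sham, and 54, 24 and 29 in C13/TDP-43. The C13/sham libraries were below all 9 others, although they held 1198, 867 and 5689 total reads of the gene, and the 0 reads there allow shares of up to 0.250% and 0.0527%. For C13 against DMSO among sham cultures the log2 fold change of nascent reads was -5.86 (SE 1.36), with an edgeR adjusted p = 0.606, and for aggregates with C13 it was 4.00 (SE 1.29, edgeR adjusted p = 0.530). These comparisons share the C13/sham libraries. DESeq2 called both, with adjusted p = 0.000968 and 0.0495, and edgeR without a filter on low counts called the former with adjusted p = 0.0126. Over 20 alternatives the log2 fold change of the former was -10.3 to -5.23, and 2 of them called it. Total reads of Zfp638 were 81.2 ± 44.8 CPM in C13/sham and 129 ± 26.9 in DMSO/sham (SD, n = 3; log2 -0.66, SE 0.38, edgeR adjusted p = 0.854). Zfp638 overlaps 3 annotated genes on its own strand.

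Zfp768, which binds sites in mammalian interspersed repeats, had the smallest adjusted p of these genes for total reads under C13 against DMSO among TDP-43 cultures. Its level was 40.6, 29.7 and 22.2 CPM in DMSO/sham, 12.6, 11.6 and 12.7 in DMSO/TDP-43, 14.7, 33.3 and 43.3 in C13/sham, and 34.6, 27.3 and 42.2 in C13/TDP-43. The DMSO/TDP-43 libraries were the 3 lowest of the 12 and overlapped no other group. The log2 fold change was 1.49 (SE 0.37, edgeR adjusted p = 0.673) for C13 against DMSO among TDP-43 cultures, and -1.33 (SE 0.37, edgeR adjusted p = 0.999) for aggregates against sham under DMSO, and both rest on the DMSO/TDP-43 libraries. The former was called by DESeq2, with adjusted p = 0.0443, and by edgeR without a filter, with adjusted p = 0.0221. All 24 counts of Zfp768 (total and nascent) are even, and it is 1 of 31 zinc finger genes whose counts are all multiples of a whole number above 1, with no reason stated.

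Zfp687, a factor that shares a complex with Zfp592 and Zmynd8, had 131, 19 and 173 nascent reads in DMSO/sham, 1, 19 and 0 in DMSO/TDP-43, 21, 2 and 0 in C13/sham, and 31, 101 and 97 in C13/TDP-43. The 2 groups with both or neither agent were mostly high and the 2 with 1 agent low, with overlap of DMSO/sham replicate 2. In total RNA its interaction had the smallest adjusted p of any zinc finger gene in any comparison (log2 1.83, SE 0.57, edgeR adjusted p = 0.417), and in nascent RNA it was 6.68 (SE 2.18, edgeR adjusted p = 0.529). Neither passed. Zfp839 had the same arrangement in total RNA, with 23.8 ± 3.93 CPM without either agent, 16.2 ± 3.97 in C13/sham and 30.1 ± 7.96 with both (SD, n = 3 each), and 22.3, 10.97 and 14.7 in DMSO/TDP-43 (interaction log2 1.47, SE 0.48, edgeR adjusted p = 0.456). Zfp703 had the opposite one, at 22.6 ± 3.03 CPM without either agent, 34.4 ± 4.22 in DMSO/TDP-43, 38.7 ± 10.2 in C13/sham and 26.7 ± 1.03 with both (SD, n = 3 each; interaction log2 -1.14, SE 0.37, edgeR adjusted p = 0.442).

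**Figure D5:**
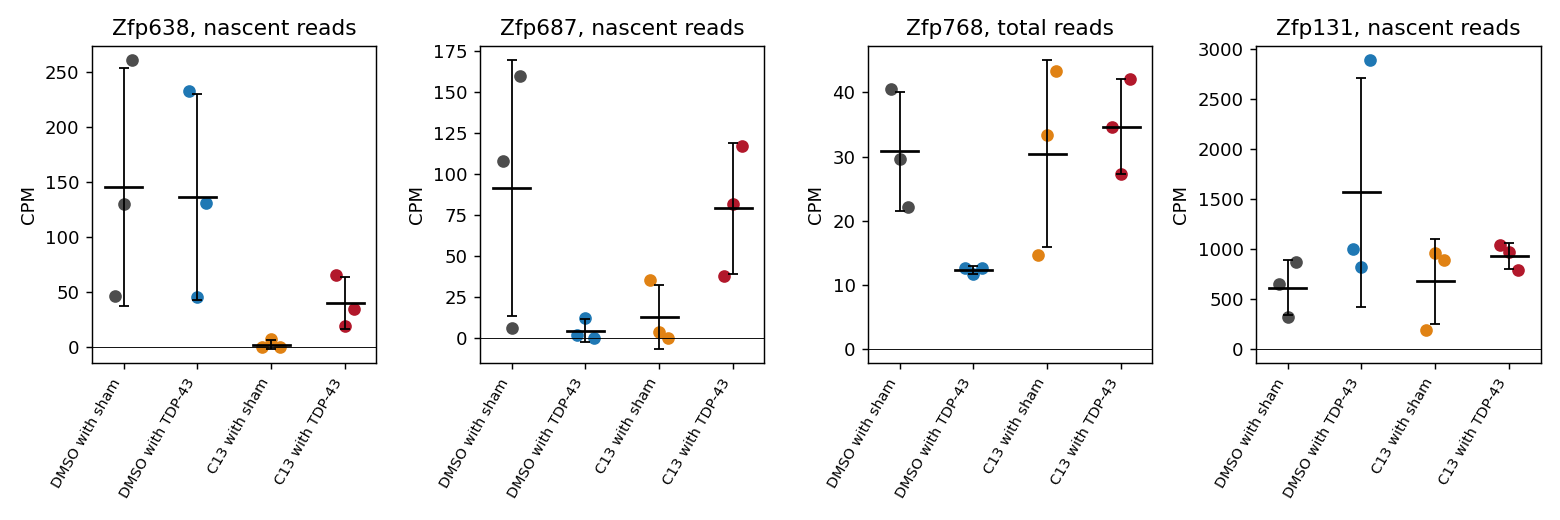
Level in CPM (vertical axis) in each library (points) of the 4 groups (horizontal axis), with mean and SD in black, for nascent Zfp638, nascent Zfp687, total Zfp768 and nascent Zfp131. Nascent Zfp638 is near 0 in C13/sham, total Zfp768 is lowest in DMSO/TDP-43, and the Zfp131 groups overlap.

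Other genes were among the 2 with the smallest p in a comparison, and none passed the edgeR test. Nascent Zfp251, a KRAB-pattern gene, had 97, 40 and 70 reads in DMSO/sham and 0, 7 and 0 in DMSO/TDP-43, which did not overlap (log2 -4.75, SE 1.71, edgeR adjusted p = 1.00). Nascent Zfp358 had 40, 10 and 40 reads in DMSO/sham and 0 in all 3 libraries of C13/sham, at least 11.9-fold lower when 3 reads are allowed over that group (edgeR adjusted p = 0.672). All its counts are even, and with counts divided by 2 the bound is 5.94-fold. In C13/sham 5 of the 79 genes had 0 nascent reads in all 3 libraries, and the medians above are the same with these at that limit. Zfp512 had 57.6, 44.6 and 53.1 CPM of total reads in DMSO/TDP-43 and 94.6, 94.3 and 79.3 in C13/TDP-43, without overlap (log2 0.79, SE 0.26, edgeR adjusted p = 0.779). Zfp148 had 44.6 ± 12.9 CPM in DMSO/sham and 78.4 ± 14.0 in DMSO/TDP-43 (SD, n = 3; log2 0.81, SE 0.25, edgeR adjusted p = 0.999). Zfp106 had 93.7 ± 32.5 CPM in C13/sham and 148 ± 21.5 in C13/TDP-43 (SD, n = 3; log2 0.66, SE 0.26, edgeR adjusted p = 0.532). Nascent Zfp263 was 2.84 higher in log2 with aggregates than with sham under C13 (SE 1.09, edgeR adjusted p = 0.555), and total Zfp871 was 0.81 higher with C13 than with DMSO under sham (SE 0.29, edgeR adjusted p = 0.801).

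Zfp131 itself, the best-read strongly labelled gene, had 613 ± 277 nascent CPM in DMSO/sham, 1567 ± 1145 in DMSO/TDP-43, 678 ± 426 in C13/sham and 933 ± 130 in C13/TDP-43 (SD, n = 3 each), and its total level was 203 to 254 CPM as group means. The groups overlapped in nascent CPM, and no group comparison of its nascent reads, total reads or share passed. Of the listed proteins that KRAB factors recruit, 0 were called in any of these comparisons by edgeR. At an unadjusted edgeR p under 0.05 there were 0 to 3 of 25 in nascent and 0 to 5 of 27 in total RNA, where 3.19% to 8.45% and 4.08% to 8.84% of all genes were. The 3 of 25 came with aggregates under DMSO (all genes 3.19%) and in the interaction (all genes 7.59%), and the 5 of 27 with aggregates under C13 (all genes 8.84%). For shares there were 0 to 5 of 26, with 5 in the interaction (all genes 4.92%).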

How the data were processed

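SLAM-seq reads from 12 libraries of QuantSeq 3′ type were used, 3 per group. The deposited values are whole read counts per gene, 1 total and 1 nascent count per library, made by the authors. Per the submitters' processing notes the build was GRCm38. Not given in the sources used here are the aligner, the counting rule with its use of strand, and how many conversions made a read nascent. Gene classes, coordinates and reading frames came from GENCODE M21, and 30922 of 30994 identifiers matched. A gene that overlaps another could share its reads: 34 of the 120 genes overlap one on their own strand and 54 one on the other.

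The nascent share is nascent over total counts in percent, averaged over libraries. Counts were tested with edgeR 4.0.16 (quasi-likelihood, TMM scaling, filterByExpr) in R 4.3.3 over all 12 libraries, with 1 coefficient per group. Shares were tested on 24 columns, nascent and remaining counts of each library, with a term per library. P-values were adjusted by Benjamini-Hochberg over all genes tested, at 0.05. The edgeR test reports no SE, so each SE given is the size of the log2 estimate over the square root of the test's F statistic. It is approximate. DESeq2 1.42.0 was an alternative. Wilson intervals (95%) and limits at 0 (3 counts) cover counting error only, since no molecular identifiers are named. Finger and KRAB patterns were searched in the annotated reading frames.

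Genes named are the 8 highest and 8 lowest by share, the 2 with the smallest p in each pairwise comparison of nascent and of total counts, listed genes of known role, and genes at the depth limit; Zfp142, Zfp277, Zfp330 and the zinc finger genes in counts of 10 or fewer were chosen after their values were seen. The 120 genes, the lists and the alternatives were chosen with earlier results of these data known.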

Additional observations from a re-analysis of the deposited data

How the results depend on the processing

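The median nascent share of the zinc finger genes stayed above that of other genes in every alternative run: it was 3.75% to 4.21% against 2.31% to 2.81% with any 1 library left out. It was 5.06% against 3.02% for genes with a mean of 10 or more nascent reads, but that cut acts on the numerator of the share. The cut asks for a larger share from the zinc finger genes, which were less deeply read, so this gap is partly set by it. Against 17 genes above the reference, there were 11 of 84 (13.1%, all genes 8.49%) with a mean of 200 or more reads and 4 of 73 (5.48%, all genes 2.69%) with a mean of 100 to 500, and 11 (without DMSO/sham replicate 1) to 17 with 1 library left out. Against 21 below, there were 32 of 162 (19.8%, all genes 31.9%) with a mean of 50 or more, 10 of 84 (11.9%, all genes 25.9%) with 200 or more, and 28 of 73 (38.4%, all genes 52.1%) with 100 to 500. There were 32 (26.7%, all genes 37.4%) with no further scaling, 36 (30.0%, all genes 43.5%) with DESeq2 and 9 (7.5%, all genes 19.99%) without the 2 libraries that stood apart. With 1 library left out there were 12 (without C13/sham replicate 3) to 19. Fewer or more genes are tested under the depth alternatives; for the other settings the cause was not tested.

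Where edgeR called 0 zinc finger genes between groups, DESeq2 called 1, Zfp638, in nascent reads for aggregates under C13, for C13 among sham cultures and for C13 averaged, and in shares for the last pair. Without a filter edgeR called 1, Zfp638, in nascent reads for C13 among sham cultures and averaged. For total reads 1 gene, Zfp768, was called by DESeq2 and without a filter for C13 among TDP-43 cultures, and 1, Zfp422, without a filter for aggregates under C13. In the other alternatives these counts of adjusted calls and median shares moved by less than 1.5 times or 1 SD (443 values), and 0 named values reversed. With nascent reads scaled by the total library sizes, genes at an unadjusted p under 0.05 went from 3 to 1 for C13 among TDP-43 cultures, from 7 to 4 for C13 averaged and from 4 to 8 for the interaction. Nascent counts limit the precision: 53 of the 120 genes had a mean of 20 or more.

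Replicate numbers share no stated day. Same-numbered libraries deviated together with correlations of -0.03 to 0.06 (nascent) and -0.03 to 0.13 (total), so they were not taken as pairs. With a replicate block in place of the library term in the share fit, there were 20 genes above and 17 below the reference. With the block added for nascent and total reads there were 0 calls between groups, and shares were not compared between groups with it.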
